A study of Mus musculus with 4 samples.

Results

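The tissue attached to the early gonad was compared between XY embryos without the miR-17~92 cluster of microRNAs and XY controls at E11.5, embryonic day in the mouse. Cells were chosen by their deposited cell type, and the 7 types outside the gonad entered: mesonephros, mesonephric tubules, epithelial mesonephros, endothelial cells, immune cells, adenosympathic cells and adrenal gland. They held 28563 of the 52745 cells of the series, namely 16273 of 23527 cells of the XY control and 12290 of 17057 cells of the XY KO. The mesonephros is the transient embryonic kidney on whose surface the gonad forms, and its tubules and duct later give rise to the male reproductive tract. Endothelial cells, macrophages and sympathoadrenal precursors share the dissected tissue, and the adrenal primordium lies beside it.

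The series was made by single-cell RNA-seq of pooled gonads with mesonephros, and it asked how loss of the cluster alters this tissue around sex determination. Its 4 samples, with 1 sample per group, were an XX and an XY control at E11.5 and an XY KO at each of E11.5 and E11.75. In the knockout both alleles of the cluster were deleted with CRISPR/Cas9, and these embryos were derived by tetraploid complementation from G4 XY embryonic stem cells, an F1 hybrid line of C57BL/6J and 129 background, and the XY control embryos came from the unedited parental line. Every cell of a KO embryo proper therefore lacked the cluster, and each XY group went back to the G4 line. How many edited clones of it gave rise to the KO embryos is not stated. The XX control came from natural mating of the same strains, and the labels give the strain of all groups as C57BL/6 x 129S4/SvJae. Each sample pooled gonads of several embryos, and the XY samples at E11.5 and the XX control were each run as a pair of libraries from 1 pool. The methods text of the study assigns the cell numbers of the KO samples to the opposite stages from the labels of the deposited cells, which were followed here. Other details of the methods go with the labels: only the E11.75 KO was run as 1 library, and the highest haemoglobin percents left in the cells, 0.388% in the E11.5 KO and 0.704% in the E11.75 KO, lie just under the limits stated for those stages. With 1 sample per group no comparison had a replicate check. Intervals in parentheses are 95% intervals that cover counting error only, and the runs show technical spread only.

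MicroRNAs pair through a short seed at their 5′ end with sites in the 3′ untranslated region (UTR) of messenger RNAs, and this pairing lowers the stability and the translation of the message. The miR-17~92 cluster yields several microRNAs from 1 primary transcript, the host gene Mir17hg, and is known for promoting proliferation and survival in tumours and in embryonic heart, lung and B cells. Its members fall into seed families, whose targets include cell cycle regulators and the pro-apoptotic gene Bcl2l11.

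The mature sequences are shown because they define the sites searched in the messages. They were read from RefSeq on GRCm38.p6, where all lie on the plus strand of chromosome 14 inside Mir17hg (chromosome 14, 115042879 to 115046727), and capitals mark the seed, bases 2 to 8.
miR-17-5p, 115043684 to 115043706: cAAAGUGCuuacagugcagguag
miR-20a-5p, 115044183 to 115044205: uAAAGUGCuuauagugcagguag
miR-18a-5p, 115043867 to 115043889: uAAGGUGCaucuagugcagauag
miR-19a-3p, 115044048 to 115044070: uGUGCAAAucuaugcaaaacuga
miR-19b-3p, 115044358 to 115044380: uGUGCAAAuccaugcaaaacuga
miR-92a-3p, 115044476 to 115044496: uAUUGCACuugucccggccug
The first pair shares a seed, miR-18a-5p differs from it, miR-19a-3p and miR-19b-3p share another, and miR-92a-3p stands alone, which gives 4 seed families. An 8mer site is the reverse complement of the seed followed by A: GCACTTTA for the miR-17 family, GCACCTTA for miR-18, TTTGCACA for miR-19 and GTGCAATA for miR-92. Only the message strand was searched. Among 17302 genes with an annotated 3′ UTR, these were found in 686, 265, 960 and 434 genes, respectively.

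The deposited names were checked against a list of markers for each type. In the XY control all markers of mesonephros, endothelial, immune, adenosympathic and adrenal gland cells were highest in their own type, as were 10 of 13 tubule markers and 8 of 12 epithelial mesonephros markers. In the XY KO this held for 9 of 12 mesonephros markers and 10 of 12 adrenal gland markers, and for all endothelial, immune and adenosympathic markers. The libraries shared few cell barcodes, 24 to 37 between a KO run and a control run and 40 and 19 between the runs of the control and of the KO. KO cells of the 7 types were deeper, with a median of 4707 UMIs (unique molecular identifiers, which count RNA molecules) per cell against 3679, and their summed UMIs were 64638427 against 67813293. The summed level of red blood cell genes, which enter other cells as free RNA, was 2043 to 4934 CPM (UMIs of a gene per 1000000 UMIs of the type) in the control types and 604 to 1329 CPM in the KO types, and the summed level of 14 immune cell markers in the other 6 types was 31.1 to 42.5 CPM against 3.34 to 15.9 CPM. The haemoglobin limit of the cell filter differed between the samples, the highest percent left being 1.35% in the control and 0.388% in the KO. The part of that filter in the red blood cell sums was not tested. Both sums were lower in every KO type, and the part of free RNA in genes called lower was not tested.

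Among the 7 types, 4 took a share of cells that differed by over 1.5 times between the samples. Adenosympathic cells, the migrating precursors of the sympathetic ganglia and adrenal medulla, were 2.23% of control cells (524 cells) and 0.786% of KO cells (134 cells), a ratio of 0.353 (0.29 to 0.427). Endothelial cells went from 3.72% (875 cells) to 1.82% (310 cells), a ratio of 0.489 (0.428 to 0.557). Immune cells went from 0.935% (220 cells) to 0.428% (73 cells), a ratio of 0.458 (0.346 to 0.599). Epithelial mesonephros, the mesothelial covering, went the other way, from 6.68% (1571 cells) to 10.9% (1863 cells), a ratio of 1.64 (1.53 to 1.75).

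The remaining types differed less. Mesonephros, the mesenchyme, was 47.3% of control and 52.0% of KO cells, mesonephric tubules were 7.31% and 5.39%, and adrenal gland cells were 1.02% and 0.745%. The endothelial share was 3.07% and 4.35% in the control runs and 1.86% and 1.78% in the KO runs, and the adenosympathic share was 1.85% and 2.60% against 0.792% and 0.78%, so both types were lower in either KO run than in either control run. The immune share was not stable: the control runs gave 0.482% (56 cells) and 1.38% (164 cells), the KO runs 0.434% and 0.423%, and among cells with at least 3000 UMIs the ratio was 1.42, since only 51 of the 220 control immune cells but 64 of the 73 KO immune cells were that deep. The dissection and the depth filters of the authors can set such shares, and their part was not tested. In XY KO E11.75 over the same control, the ratios were 0.36 for adenosympathic, 0.497 for endothelial, 0.479 for immune, 1.41 for epithelial mesonephros and 0.092 for adrenal gland cells, which numbered 8. In the XX control over the same control they were 1.06, 0.718, 2.16, 1.23 and 1.46.

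A gene was called in a type when the summed UMIs gave a CPM at least 2-fold apart and the gene had at least 100 UMIs over both samples. By this rule 61 of 13002 genes were higher (0.469%) and 143 lower (1.1%) in KO mesonephros, and 83 of 10598 were higher (0.783%) and 167 lower (1.58%) in the tubules. Epithelial mesonephros had 43 of 9994 genes higher (0.43%) and 56 lower (0.56%), and endothelial cells 16 of 8425 higher (0.19%) and 80 lower (0.95%). Immune cells had 124 of 1849 genes higher (6.71%) and 93 lower (5.03%), adenosympathic cells 7 of 5703 higher (0.123%) and 61 lower (1.07%), and adrenal gland cells 13 of 3954 higher (0.329%) and 41 lower (1.04%). Lower calls outnumbered higher ones in 6 of the 7 types, the immune cells being the exception. This balance depended on scaling: summed over types there were 347 higher and 641 lower calls as reported, 428 and 508 with TMM factors, and 394 and 544 after subtracting the median of each type. The minimum of 100 UMIs is over both samples, so a gene high in the sample with more UMIs passes it more easily. KO and control UMIs were 6006208 and 9057381 in tubules and 3208388 and 5483986 in endothelial cells. They were 898092 and 2411020 in adenosympathic and 910288 and 1365137 in adrenal gland cells. The KO held more in mesonephros (43486834 against 42768920) and epithelial mesonephros (9565996 against 6145357). The part of the totals in the balance was not tested.

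**Figure D1:**
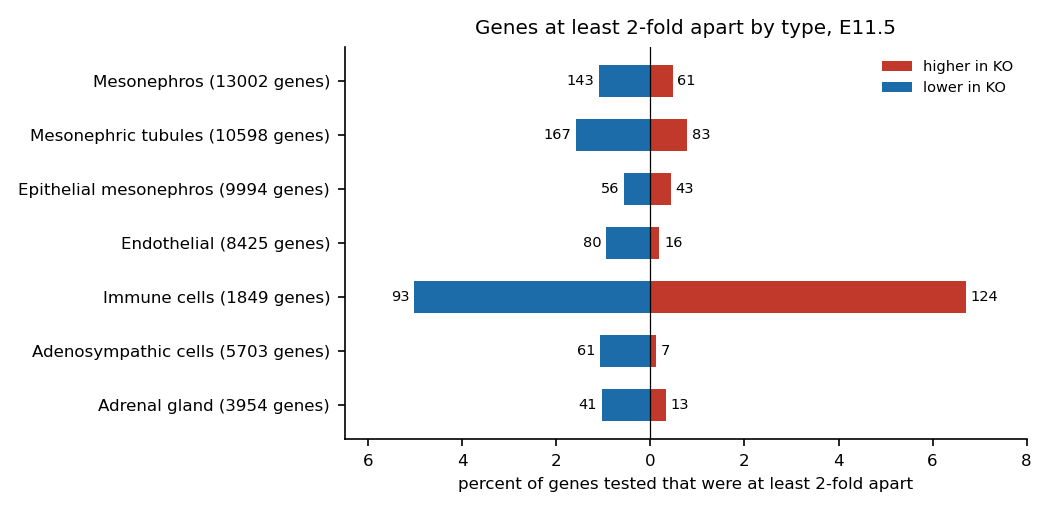
Percent of the genes tested in each type (x axis) that were at least 2-fold lower (blue, left) or higher (red, right) in XY KO than in XY control cells at E11.5, with the number of genes beside each bar and the genes tested in parentheses. Immune cells stand apart at 5.03% lower and 6.71% higher, and the lower bar is the longer one in the other 6 types.

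Very few changes were common to many types. Of 5595 genes tested in at least 5 types, 5307 (94.9%) were past 2-fold in none, 252 (4.5%) in exactly 1 and 30 (0.536%) in 2 to 4. Past 2-fold in the same direction in at least 5 types was 1 gene higher (0.0179%), Mir17hg, and 5 genes lower (0.0894%): H19, Dppa5a, Kctd14, Bckdha and Hnrnpul1. With cells of at least 3000 UMIs alone Dppa5a left the list. With TMM factors Kctd14 and Hnrnpul1 no longer met the rule, and Kctd14 also did not after subtracting the median of the type.

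Mir17hg, the host gene of the deleted cluster, was higher in every type of the KO. In mesonephros it rose from 18.7 CPM (800 UMIs) in the control to 163 CPM (7089 UMIs) in the KO, a log2 ratio of 3.12 (3.02 to 3.23). The log2 ratio was 2.70 in tubules, 2.96 in epithelial mesonephros, 2.87 in endothelial cells, 3.43 in adenosympathic cells and 3.80 in adrenal gland cells. In immune cells the gene had 16 control and 53 KO UMIs, below the minimum, for a log2 ratio of 1.74. Control types lay at 10.3 to 28.2 CPM, the XX control at 9.70 to 25.4 CPM, the KO at 94.2 to 220 CPM and XY KO E11.75 at 133 to 210 CPM, so KO and control levels did not overlap in any type. Adrenal gland cells of XY KO E11.75, which enter its range, numbered 8. The 3′ tags counted here need not fall inside the deleted part of the transcript, so this level neither checks nor contradicts the deletion.

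H19, an imprinted non-coding RNA expressed from the maternal allele (chromosome 7, 142575529 to 142578143), fell in all 7 types. In mesonephros it went from 790 CPM (33771 UMIs) to 7.77 CPM (338 UMIs), a log2 ratio of -6.66. Endothelial cells held 1206 CPM in the control and 4.68 CPM in the KO (6612 and 15 UMIs, log2 ratio -7.96), and tubules 591 and 7.66 CPM (-6.26). Epithelial mesonephros kept the most, 44.8 CPM (41.9 and 47.6 CPM by run) against 925 CPM, a log2 ratio of -4.37. The log2 ratio was -7.24 in adenosympathic cells and -7.48 in adrenal gland cells. Immune cells had 116 UMIs in the control and 0 in the KO, at least 37.4-fold lower when 3 counts are taken as the limit of a count of 0. H19 was at 186 to 1635 CPM in the XX control and at 0 to 35 CPM in XY KO E11.75. Adrenal gland cells of that KO sample numbered only 8. With gonadal cells included, H19 went from 667 CPM in all XY control cells to 11.6 CPM in all XY KO cells at E11.5. A difference between the cell lines and an effect of the deletion cannot be told apart for this gene. No other imprinted gene of the list was called in more than 1 type, and the median of the list lay within 0.09 of the median of all genes tested in the 6 types besides the immune cells.

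Dppa5a, a germ cell and pluripotency gene, and Kctd14, which is abundant in gonadal supporting cells, were low outside the gonad and lower still in the KO. Dppa5a was at 30 to 68.8 CPM in the control types and at 3.55 to 14.1 CPM in the KO types, with 51.1 and 14.1 CPM in mesonephros (log2 ratio -1.85), whereas germ cells held 3319 and 3592 CPM. Kctd14 was at 42.5 to 117 CPM in the control types and at 10.7 to 34.6 CPM in the KO types, with 47.2 and 15.4 CPM in mesonephros (log2 ratio -1.61). Over all cells of a sample, gonadal ones included, the levels went the same way, from 263 to 94.6 CPM for Dppa5a and from 564 to 250 CPM for Kctd14. Not every gonadal type did so: Kctd14 was at 319 and 351 CPM in gonadal epithelial cells and 28.8 and 35.7 CPM in germ cells. In the other gonadal types it was lower in the KO, with 3632 and 2549 CPM in bipotential progenitors. The part of the mixture of cell types in the levels over all cells was not tested. Of the germ cell list, which holds Dppa5a itself, 6 of 8 genes tested were lower in KO mesonephros, beside 1.1% of all genes there. The summed level of the list, Dppa5a included, fell from 115 to 57.9 CPM. Dppa3, another member, went from 15.9 to 4.39 CPM (log2 ratio -1.85). In XY KO E11.75 Kctd14 was at 40.7 to 157 CPM, which overlaps the XY control, and in the XX control at 15 to 88.8 CPM. The range of XY KO E11.75 includes its adrenal gland cells, which numbered 8, under the minimum of 30 cells. The part of free RNA from gonadal cells in these levels was not tested.

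Bckdha, a subunit of the branched-chain keto acid dehydrogenase, and Hnrnpul1, an RNA-binding protein, were below the control in every type. In mesonephros Bckdha was at 55.4 CPM in the control and 22.4 CPM in the KO (log2 ratio -1.31), and Hnrnpul1 at 116 and 52.8 CPM (-1.13). Over the other types the log2 ratios ran from -0.80 in adenosympathic to -1.80 in immune cells for Bckdha and from -1.06 in tubules to -1.83 in immune cells for Hnrnpul1, where the immune values rest on under 100 UMIs.

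**Figure D2:**
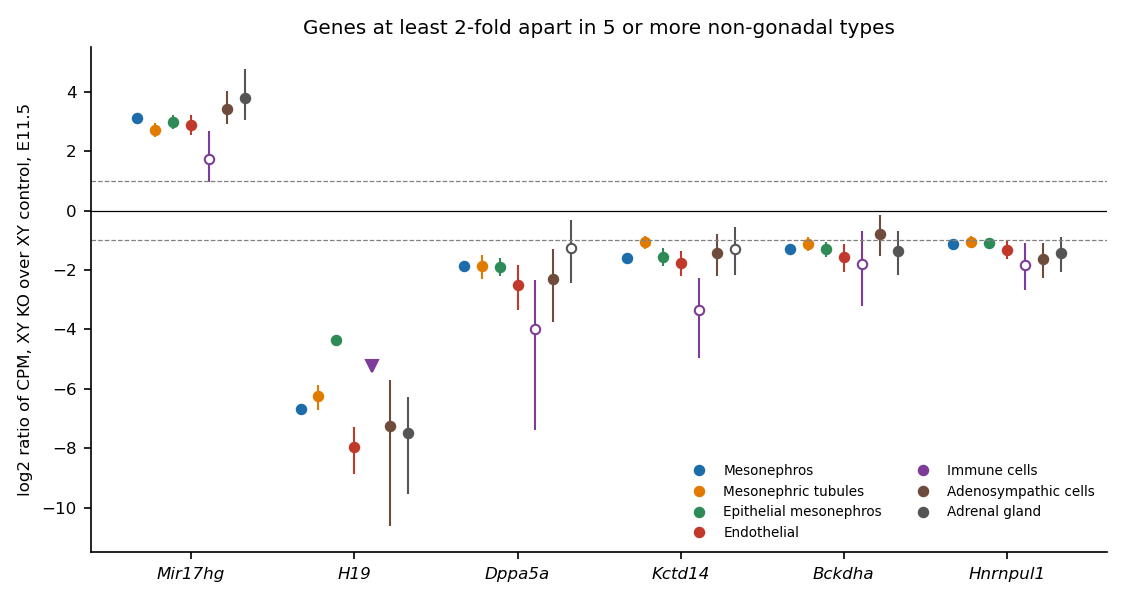
Log2 ratio of CPM, XY KO over XY control at E11.5 (y axis), of the 6 genes at least 2-fold apart in the same direction in 5 or more types, with 1 point per type and bars for the 95% counting interval. Open points had under 100 UMIs, the triangle is the bound of at least 37.4-fold for H19 in immune cells, and dashed lines mark 2-fold. Mir17hg lies above 0 and the others below, with Bckdha in adenosympathic cells (-0.80) inside the line.

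Bckdha and Hnrnpul1 are neighbours on chromosome 7, and the genes between and beside them were lower too. A scan for windows of 5 neighbouring genes with a median of at least 0.6 in size (log2 ratio minus the median of the type, made after seeing the data) found 2 stretches in this comparison, none between the runs of the control and none between the runs of the KO. The scans were of unequal size, with 5465 windows in this comparison, 4186 between the control runs and 1542 between the KO runs. It found 1 between the XX and XY controls, and 30 between XY KO E11.75 and the same control. From Cic to Hnrnpul1 (mm10, chromosome 7, 25267704 to 25754757) 12 genes were tested in at least 1 type, and 51 of 51 values over genes and types were below 0, with a median of -0.99 and a range of -1.63 to -0.47. The scan picked the stretch by these same ratios, so the count describes the stretch and is not a check of it. In mesonephros Cic, a transcriptional repressor, was at 48.7 CPM in the control and 24.7 CPM in the KO, Pafah1b3 at 229 and 122 CPM, Exosc5, a subunit of the RNA exosome, at 63.4 and 33 CPM, and Tgfb1, the growth factor TGF-β1, at 21.7 and 6.65 CPM. Immediately outside, Erf was at 53.6 and 51.3 CPM next to Cic, and Axl at 86.8 and 69.9 CPM (log2 ratio -0.31) and Cyp2s1 at 13 and 8.85 CPM (-0.55) next to Hnrnpul1. The median over the 5 genes of the stretch that entered the scan was -0.76 to -1.07 by type, whereas that of the 12 scanned genes nearest to it was -0.11 to 0.27. Nearer genes outside the scan, Axl and Cyp2s1 among them, are not in that median. On the same scale in mesonephros Axl was at -0.22, Cyp2s1 at -0.45, Dedd2 at -0.36, Zfp526 at -0.26, Zfp574 at -0.16 and Gm30146 at 0.47. In XY KO E11.75 over the same control the stretch had a median of -1.32, in the XX control 0.08.

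The other stretch that the scan found lay on chromosome 18 from Lmnb1, a nuclear lamin, to Isoc1, and went up. Adamts19, a secreted protease, lies beyond Isoc1, was not in the scan and was added to the stretch afterwards. With Adamts19 included, all 41 values over 11 genes and the types were above 0, with a median of 0.79 and a range of 0.21 to 1.69. The highest value was that of Adamts19 in epithelial mesonephros. As on chromosome 7, the stretch was picked by these same ratios. In mesonephros Lmnb1 was at 323 CPM in the control and 471 CPM in the KO, Fbn2, a fibrillin of the extracellular matrix, at 418 and 745 CPM, and Adamts19 at 5.21 and 15.7 CPM. The 12 scanned genes nearest to the stretch had medians of -0.07 to 0.17 by type. In XY KO E11.75 over the same control the 5 genes that entered the scan had a median of 0.91, in the XX control -0.17. The autosomes and chromosome X, 20 chromosomes, showed no such shift as wholes. Their medians lay between -0.11 and 0.12 of the median of the type in each type. Chromosome Y was not among them, and its median lay above that of the type in every type. It was 0.62 above in mesonephros (5 genes tested), and ranged from 0.44 in adrenal gland cells to 0.99 in immune cells (1 gene tested in each). The values of chromosome Y thus rest on few genes. DNA was not measured, and a difference between the cell lines and an effect of the deletion cannot be told apart here.

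**Figure D3:**
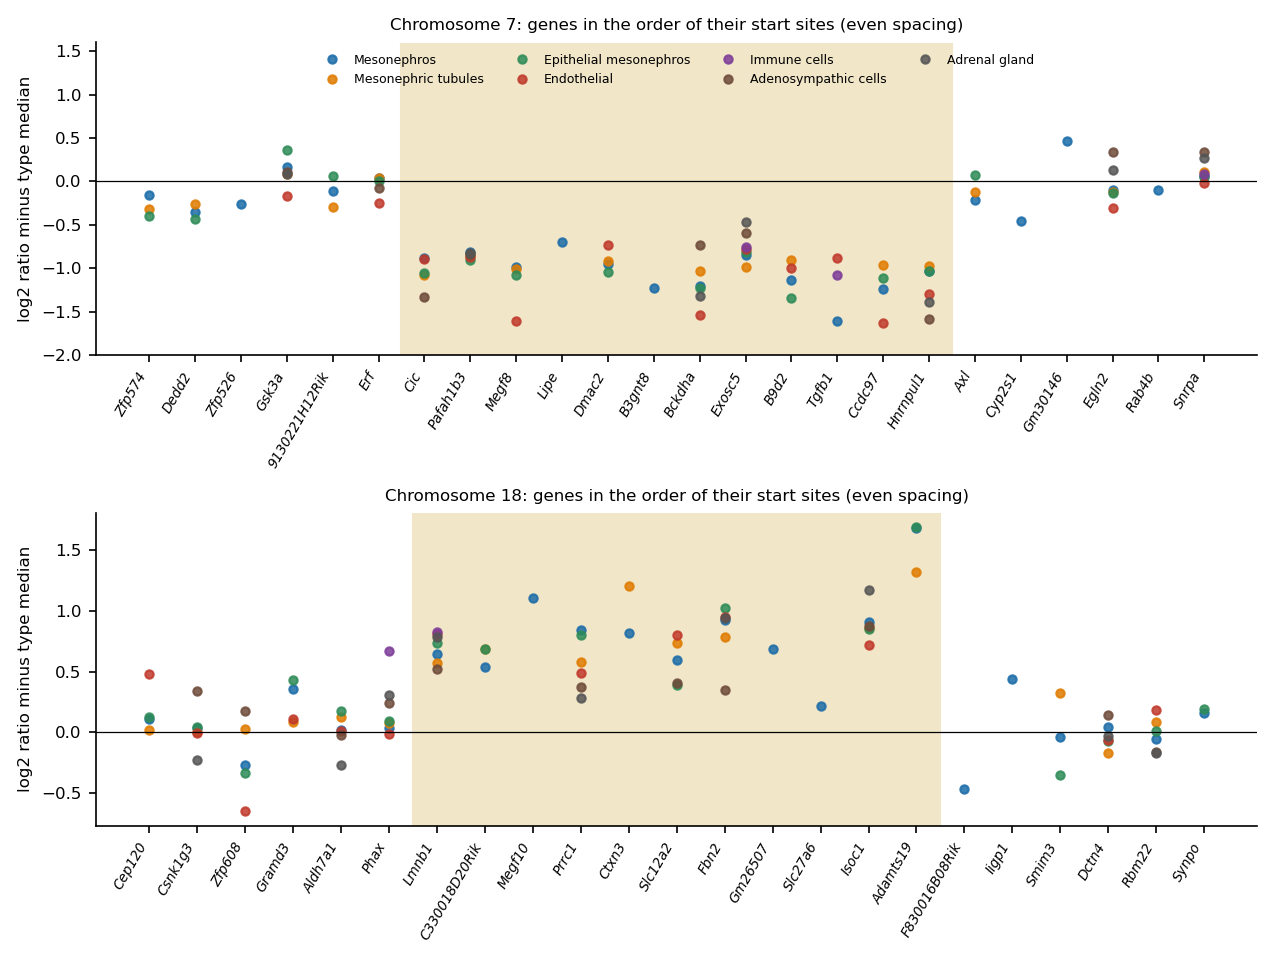
Log2 ratio minus the median of the type (y axis), XY KO over XY control at E11.5, for genes in their order along chromosome 7 (top) and chromosome 18 (bottom), evenly spaced, with 1 point per type. Shaded genes form the 2 stretches, which were picked by these same ratios, with Adamts19 added on chromosome 18. All 51 values were below 0 in the first and all 41 above 0 in the second, while the genes beside them lie on both sides of 0. The genes drawn beside them are not all in the scan.

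Between the shared genes and those of a single type stood 30 genes past 2-fold in 2 to 4 types, of which 2 were higher without being lower in any, 14 lower without being higher in any, and 14 higher in some and lower in others. Ifitm1, an interferon-induced membrane protein also expressed in germ cells, was lower in 4 types and below 0 in all 7, with 99.6 CPM in control and 45.9 CPM in KO mesonephros (log2 ratio -1.12) and a log2 ratio of -1.84 in adenosympathic cells. Slc16a3, the lactate exporter MCT4, was higher in 4 types, with 31.4 and 73.2 CPM in mesonephros (log2 ratio 1.22), and was at -0.29 and -0.27 in adenosympathic and adrenal gland cells. Madd, a regulator of MAP kinase signalling and of Rab proteins, was lower in mesonephros (-1.32), tubules (-1.35) and epithelial mesonephros (-1.19). Tgfb2, the growth factor TGF-β2, was higher in tubules, from 32.0 to 93.7 CPM (log2 ratio 1.55), and in epithelial mesonephros, from 35 to 73.9 CPM (1.08).

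Changes confined to 1 type were required to pass 2-fold there and to stay within 0.5 on the log2 scale in every other type tested. There were 51 higher (0.912% of 5595) and 86 lower (1.54%), and 85 of them were in immune cells, the type with the fewest cells, with 45 higher and 40 lower. Adenosympathic cells had 24 lower and none higher, endothelial cells 11 lower and none higher, adrenal gland cells 10 lower and 3 higher, tubules 1 lower and 2 higher, and epithelial mesonephros 1 higher. The UMI minimum is over both samples, and adenosympathic, endothelial, adrenal gland and tubule cells held more UMIs in the control. A gene lower in the KO thus passes the minimum more easily in them than a gene higher in the KO. The part of this in the single-type counts was not tested. The rule for a single type covers only genes tested in at least 5 types, of which immune cells tested 1742 and the tubules and mesonephros 5595 each. Mesonephros had none. Among its calls, 48 of 61 higher and 112 of 143 lower genes were tested in at most 2 types, as were 3149 of the 13002 genes tested in mesonephros.

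The mesonephric tubules changed in make-up. The authors' annotation splits them into 3 clusters, and cluster 1 went from 539 of 1721 control cells (31.3%) to 44 of 920 KO cells (4.78%), with 30.1% and 32.5% in the control runs and 5.47% and 4.25% in the KO runs. The other samples did not share this: cluster 1 was 33.4% of the tubule cells in XY KO E11.75 (172 of 515) and 25.5% in the XX control (91 of 357). This cluster held the genes of the mesonephric (Wolffian) duct. Within it the control had 332 CPM of Gata3, a transcription factor of the duct, 885 CPM of Calb1, a calcium-binding protein, and 132 CPM of Ret, the receptor through which the duct responds to GDNF. Over the whole type Ret went from 399 to 13 UMIs (44.1 to 2.16 CPM, log2 ratio -4.29), Gata3 from 122 to 49.4 CPM (-1.30), Calb1 from 2661 to 245 UMIs (-2.85) and Wnt9b, a duct signal to the tubules, from 823 to 176 UMIs (-1.63).

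Within cluster 1 itself the genes parted. Gata3 was at 332 CPM in the control and 372 CPM in the KO, Wnt9b at 248 and 276 CPM, and the epithelial gene Epcam at 1119 and 1291 CPM, whereas Calb1 was at 885 and 476 CPM and Ret at 132 and 13.3 CPM. The KO values of this cluster rest on 44 cells, and the low Ret level on few UMIs. Of the 88 genes lower in the tubules as a type that could be tested within cluster 1, 14 were past 2-fold there, beside 129 lower genes of the 6074 tested in that cluster. The same count was 31 of 32 in cluster 2, beside 100 lower genes of 5205 tested. In cluster 3 it was 21 of 65, beside 72 of 9183, and in any of the clusters 54 of 122, beside 288 of 9325. Arhgdib, the only gene lower in the tubules alone (-1.18), was at 44.9 CPM in the control and 50.5 CPM in the KO within cluster 1.

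Cluster 2 held skeletal muscle genes in the KO. Myod1, the myogenic determination factor, was at 18.9 CPM in the control and 237 CPM in the KO, Myog, the differentiation factor myogenin, at 49.7 and 461 CPM, Msc, musculin, at 2.86 and 125 CPM, and Neb, the sarcomere protein nebulin, at 8.57 and 115 CPM. By run Myog was at 35.9 and 64.0 CPM in the control and at 521 and 400 CPM in the KO, so the runs of the samples did not overlap. Myod1 UMIs were present in 79 of 272 KO cells of this cluster (29.0%, median 4606 UMIs per cell) and in 7 of 406 control cells (1.72%, median 3909). Endothelial cells, which should lack it, had them in 1 of 310 KO cells (0.323%, median 8374 UMIs) and 2 of 875 control cells (0.229%, median 4796). The satellite cell factor Pax7 was in 43 of the 272 KO cells (15.8%) and 2 of the 406 control cells. Pax2, a nephric lineage factor, was at 163 CPM in control and 60 CPM in KO cells of cluster 2.

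In the type as a whole, the summed level of 20 skeletal muscle genes, chosen after the values were known, was 138 CPM in the control and 631 CPM in the KO. Msc (log2 ratio 5.27) and Myod1 (3.82) led the genes tested in at most 2 types. Both genes higher in the tubules alone also sat in cluster 2: Itm2a, a membrane protein, at 54.3 and 669 CPM and the imprinted gene Nnat, neuronatin, at 261 and 1180 CPM, against 41.1 and 168 CPM and 130 and 334 CPM over the type. In XY KO E11.75 the 3 muscle genes Myod1, Myog and Msc were at 0 to 0.88 CPM in cluster 2. The muscle genes were thus high in 1 of the KO pools, and the part of the dissection in this was not tested.

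**Figure D4:**
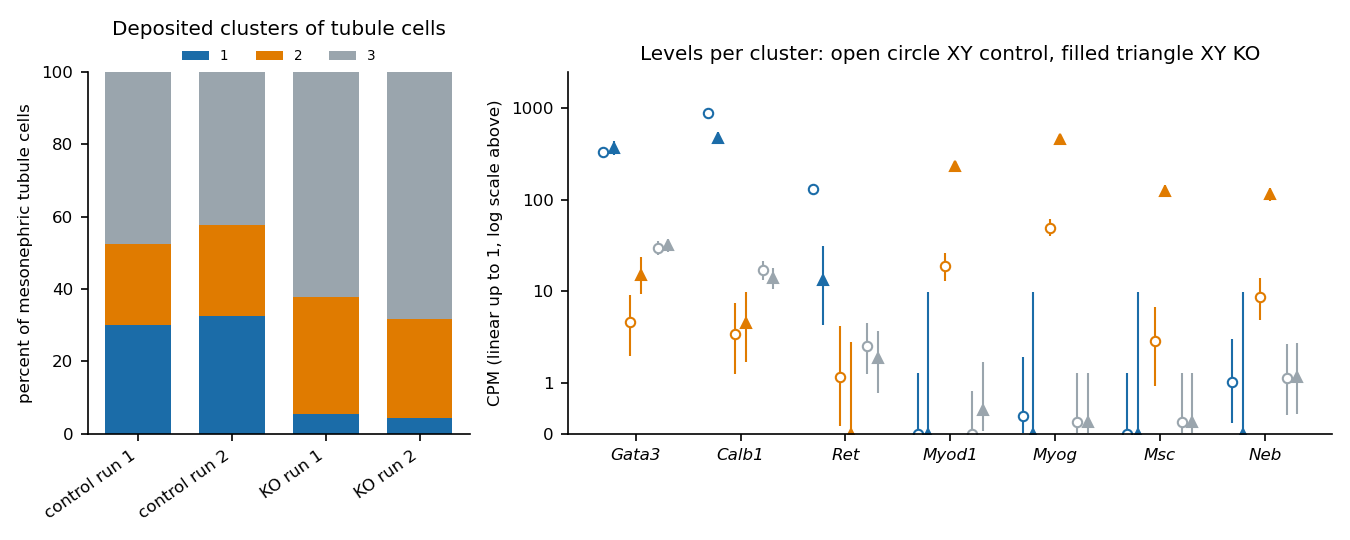
Left, percent of mesonephric tubule cells in each deposited cluster for the runs of XY control and XY KO at E11.5, where cluster 1 takes 30.1% and 32.5% in the control and 5.47% and 4.25% in the KO. Right, CPM (linear up to 1, log scale above) of 7 genes per cluster in the same colours, with open circles for the control, filled triangles for the KO and bars for the 95% counting interval, where Ret is lower within cluster 1 and the 4 muscle genes are higher within cluster 2.

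The largest ratios of mesonephros besides the shared genes were in genes with few UMIs. Pax1, a transcription factor of the sclerotome, had 3 UMIs in the control and 117 in the KO (log2 ratio 5.05, 3.68 to 7.56). Gpc5, a glypican, had 14 and 171 UMIs (log2 ratio 3.54), and it lies downstream of Mir17hg on chromosome 14 (115092215 to 116525179). Cst9, a cystatin, fell from 152 to 11 UMIs (-3.75), and Sprr2d, a cornified envelope protein, from 100 to 12 UMIs (-3.03). With no minimum beyond 1 UMI both were at least 2-fold lower in 5 or more of the 7 types. A call in that setting can rest on 1 UMI, so it does not show whether the fall went beyond mesonephros. Of the 4 clusters of this type, cluster 1 went from 38.9% to 27.1% of its cells and cluster 3 from 24.1% to 31.8%. In XY KO E11.75 they were at 49.2% and 17.4%, on the other side of the control, and in the XX control at 32.0% and 26.1%. None of the 12 mesonephros markers was called, beside 0.469% of all genes higher and 1.1% lower, so a count of 0 is near the background.

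In epithelial mesonephros the largest ratios were in genes of low level. Gdf10, a TGF-β family ligand, rose from 6.51 to 45.0 CPM (40 to 430 UMIs, log2 ratio 2.77), Ctsk, the protease cathepsin K, from 1.79 to 12.2 CPM (2.71), and Adamts9, a matrix protease and the only gene higher in this type alone, from 12.9 to 50.8 CPM (1.97, 1.64 to 2.34). The runs did not overlap for Adamts9, at 13.4 and 12.3 CPM in the control and 53.3 and 48.6 CPM in the KO. XY KO E11.75 had 15.5 CPM of it. Khdrbs2, a neuronal RNA-binding protein, fell from 24.1 to 5.44 CPM (-2.14), Egr1, an immediate early transcription factor, from 27.2 to 5.96 CPM (-2.18) and Prrx1, a mesenchymal homeobox factor, from 97.8 to 43.5 CPM (-1.17). None of the 10 tested markers of this type was called, beside 0.43% of all genes higher and 0.56% lower.

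In endothelial cells none of 15 endothelial markers was past 2-fold, beside 0.19% of all genes higher and 0.95% lower, and their summed level was 6639 CPM in the control and 6861 CPM in the KO. Higher were Nts, neurotensin (6.38 to 26.5 CPM, log2 ratio 2.04), Kcne3, a potassium channel subunit found in tip cells (41.4 to 138 CPM, 1.73), and Egln3, an oxygen-sensing prolyl hydroxylase (16 to 39.6 CPM, 1.30). Lower were Madcam1, an adhesion molecule of mucosal vessels (19 to 3.12 CPM, -2.54), and Etv2, the master factor of early endothelial fate (220 to 38 UMIs, -1.74). The KO runs of Etv2 were far apart, at 3.08 and 20.9 CPM. The genes lower in this type alone included Adgrl3, a latrophilin receptor (19.3 to 7.17 CPM, -1.41), Smarca1, a chromatin remodeller (15.5 to 5.92 CPM, -1.36), and Hoxc6, a homeobox factor of axial position (18.2 to 7.17 CPM, -1.32). Mesonephros markers were also lower in these cells, with a median 0.81 below that of all genes over the 9 tested, and their part in those calls was not tested.

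Immune cells had the highest share of tested genes called, though tubules had more genes called. Of 13 immune markers tested 11 were higher in the KO, beside 6.71% of all genes. C1qa and C1qb, complement components made by macrophages, went from 67.1 to 784 CPM (log2 ratio 3.53) and from 210 to 1445 CPM (2.78), Mrc1, the macrophage mannose receptor, from 73.9 to 539 CPM (2.85), and Csf1r, the receptor for the macrophage growth factor, from 84.3 to 311 CPM (1.87). Lgals3, galectin 3, had 5 and 126 UMIs (4.57) and Msr1, a scavenger receptor, 8 and 115 UMIs (3.81). S100a6, a calcium-binding protein (3.70), Klf2, a transcription factor (3.14), and the lysosomal protease Ctsb (2.20) led the genes higher in immune cells alone.

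Several granulocyte and platelet genes were lower in the same sums. The granulocyte and platelet genes given here were chosen after their values were known. Camp, a neutrophil granule peptide, had 393 UMIs in the control and 39 in the KO (log2 ratio -3.27), all in 1 KO run and 1 KO cell, and in 10 control cells. Pf4, platelet factor 4, went from 2613 to 707 UMIs (-1.84) and Itga2b, the platelet integrin, from 259 to 56 UMIs (-2.15), whereas Mpo, myeloperoxidase, was at -0.07. Cells with a Pf4 UMI were 70 of 220 in the control (31.8%) and 41 of 73 in the KO (56.2%), which goes against the summed level, and the depths differ, so no order is read from these shares. Endothelial cells, a type that should lack it, had one in 54 of 875 (6.17%, median 4796 UMIs per cell) and 25 of 310 cells (8.06%, median 8374). The granule genes Ngp and Ltf had 94 and 45 UMIs in the control and 0 in the KO, at least 30.3-fold and 14.5-fold lower. The genes lower in immune cells alone were led by Sparc, a matrix protein (237 to 37.3 CPM, -2.64), Tpm2, a tropomyosin (193 to 35.5 CPM, -2.41), and Mest, an imprinted mesenchymal gene (401 to 83.5 CPM, -2.25). All 4 mesonephros markers tested in immune cells were lower. The median depth was 1488 UMIs in control and 7040 UMIs in KO immune cells, and the part of depth, of free RNA and of the mixture of blood cells in these differences was not tested. Fewer cells of a class and less RNA per cell cannot be told apart in these sums.

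Adrenal gland cells had lower levels of genes for steroid production. Of 9 adrenal markers tested, 4 were lower and none higher, beside 1.04% and 0.329% of all genes. Nr5a1, the steroidogenic factor SF1, went from 288 to 137 CPM (log2 ratio -1.06, -1.37 to -0.77), Cyp11a1, the side-chain cleavage enzyme that starts steroid synthesis, from 152 to 69.2 CPM (-1.13, -1.57 to -0.73), Cyp21a1, the 21-hydroxylase, from 76.9 to 23.1 CPM (-1.71), and Fdx1, the ferredoxin that supplies electrons to Cyp11a1, from 770 to 332 CPM (-1.21). Star, the cholesterol transporter, was just inside the limit at 265 and 137 CPM (-0.95). Nr5a1 and Cyp11a1 were lower in mesonephros too, from 5.96 to 2.64 CPM (-1.17) and from 2.64 to 0.552 CPM (-2.24), as was Star (-1.05), and with no minimum beyond 1 UMI Nr5a1 was at least 2-fold lower in 5 or more of the 7 types. The part of free RNA in these values was not tested. Mrap, which carries the ACTH receptor to the surface, fell from 71.1 to 15.4 CPM (-2.16), the receptor gene Mc2r itself was at 0.13, and Hsd3b1, 3β-hydroxysteroid dehydrogenase, was at 111 and 172 CPM (0.63). Alas1, the first enzyme of haem synthesis, fell from 133 to 51.6 CPM in this type alone (-1.35), as did Fam126a, which helps to make a membrane phosphoinositide (105 to 34.1 CPM, -1.61). Higher in this type alone were Rnaseh2b, a subunit of RNase H2 (1.42), Zfp593, a zinc finger protein (1.39), and Itga6, a laminin receptor integrin (1.10). These calls rest on 127 KO and 241 control cells, and 17 of the 41 lower genes were at least 2-fold apart in every pairing of a KO run with a control run.

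In adenosympathic cells, which took a lower share, none of the 14 markers, among them Sox10 and Th, was called, beside 1.07% of genes lower and 0.123% higher. Lower were Pcdh10, a protocadherin of neural cells (71.3 to 22.3 CPM, log2 ratio -1.65), and Slc10a4, a transporter of cholinergic and adrenergic vesicles (40.2 to 16.7 CPM, -1.23). The 24 genes lower in this type alone were led by Etl4 (41.5 to 12.2 CPM, -1.70), Fryl (40.6 to 14.5 CPM, -1.44) and Gak, a clathrin-uncoating kinase (38.2 to 15.6 CPM, -1.25). Each of these 3 had 11 to 14 KO UMIs, and of the 61 lower genes of this type 12 were at least 2-fold apart in every pairing of runs.

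Genes of glycolysis and of the response to low oxygen had a list median slightly above that of all genes in each type, though single members went the other way. The list held 39 genes, of which 38 were tested in mesonephros, and 33 of these were above the median of all genes there. The list median exceeded that of all genes by 0.50 in mesonephros, 0.36 in tubules, 0.53 in epithelial mesonephros, 0.39 in endothelial cells, 0.47 in immune cells, 0.21 in adenosympathic cells and 0.18 in adrenal gland cells. With run 1 alone the last 2 medians were 0.091 and 0.079, and with no minimum beyond 1 UMI the immune median was 0.71. In XY KO E11.75 over the same control, which it shares, the same medians were -0.24 to 0.16, and in the XX control over it -0.30 to 0.09. In mesonephros 3 of 38 genes were higher past 2-fold, beside 0.469% of all genes: Slc16a3, Bnip3, a mitophagy receptor induced by low oxygen (13.7 to 32.0 CPM, 1.23), and Pdk1, a kinase that inhibits pyruvate dehydrogenase (1.03). Below 2-fold were Ldha, which makes lactate, at 266 and 424 CPM (0.67), Tpi1 (0.68), Pgk1 (0.50) and Gapdh (0.38), all enzymes of glycolysis. Ldhb, the lactate dehydrogenase subunit of oxidative tissue, was below 0 in all 7 types, from -0.29 in tubules to -2.62 in immune cells, where it was lower past 2-fold as in endothelial cells (220 to 80.7 CPM, -1.44).

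**Figure D5:**
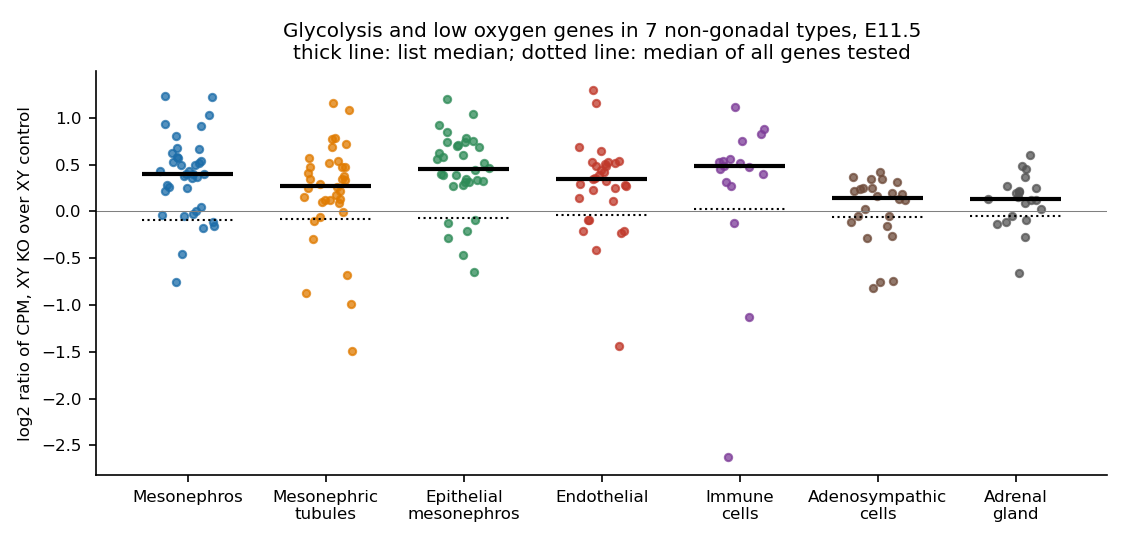
Log2 ratio of CPM, XY KO over XY control at E11.5 (y axis), of each tested gene of the glycolysis and low oxygen list in 7 types, 1 point per gene. The thick line of the list median lies above the dotted line of all genes tested in each type, by 0.18 to 0.53, and the lowest points include Ldhb.

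Extracellular matrix genes were above all genes by 0.32 in mesonephros, 0.26 in tubules and 0.42 in epithelial mesonephros and below them by 1.74 in immune cells. Genes of G2 and M phase were above by 0.32 in tubules and 0.42 in endothelial cells, where all 34 lay above the median and none passed 2-fold, and by 0.07 in mesonephros. S phase genes lay within 0.12 of the median of all genes in every type. Of 18 immediate early and heat shock genes tested in immune cells 7 were higher, beside 6.71% of all genes there, among them Egr1 (82.5 to 261 CPM, 1.65) and Fosb (51.6 to 148 CPM, 1.5), whereas Fosb was lower in endothelial cells (57.3 to 19 CPM, -1.58) and higher in tubules (50.7 to 113 CPM, 1.16).

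Genes of p53 and cell death lay between 0.20 below and 0.05 above all genes in the 6 types besides the immune cells, those of TGF-β and BMP signalling between 0.11 below and 0.08 above, FGF and MAPK feedback genes between 0.21 below and 0.20 above, and interferon and antigen presentation genes between 0.33 below and 0.16 above. In immune cells 4 of 7 interferon genes were higher, beside 6.71% of all genes. Gonadal somatic markers had 1 of 9 lower in mesonephros, beside 1.1% of all genes, and their sum was 530 CPM in the control and 492 CPM in the KO. Mcm7, host of a paralogous cluster, stayed between -0.08 and 0.24 in the 7 types.

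The genes long named as targets of the cluster did not move as a group. Of 35 tested in mesonephros none was called, beside 0.469% higher and 1.1% lower among all genes, and the list median lay within 0.08 of that of all genes in 6 types and 0.20 below it in immune cells. Thbs1, the angiogenesis inhibitor thrombospondin 1, was higher in epithelial mesonephros (12.0 to 24.3 CPM, 1) and lower in immune cells (817 to 247 CPM, -1.72), where the mean of CPM over cells gave 0.08. Ccnd1, cyclin D1, was above 0 in all 7 types: 100 to 146 CPM in mesonephros (0.54), 255 to 491 CPM in tubules (0.95), 114 to 177 CPM in epithelial mesonephros (0.64), 230 to 388 CPM in endothelial cells (0.75), 835 to 1081 CPM in adenosympathic cells (0.37) and 298 to 450 CPM in adrenal gland cells (0.60). In immune cells it had 40 and 78 UMIs (1, 0.44 to 1.6). Bcl2l11 passed 2-fold in none of the 5 types where it was tested, at -0.50 in mesonephros, -0.74 in tubules, -0.55 in epithelial mesonephros, 0.02 in endothelial and -0.06 in adrenal gland cells.

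Windows of the message strand are shown to set presence of an 8mer site beside direction of change. Sites were located for the target list and for genes named by rule, and all those of genes described here are given. They lie in annotated 3′ UTR exons (mm10) and capitals mark the 8mer.
Ccnd1, miR-19 site, chr7:144930993-144931022, minus strand: acagtaggtaaTTTGCACAcctctggctct
Egln3, miR-17 site, chr12:54180314-54180343, minus strand: gcttcttattcGCACTTTAtgtatgcgtcc
Hnrnpul1, miR-19 site, chr7:25721547-25721576, minus strand: ttccccgtaacTTTGCACAcaagcgtctgt
Etl4, miR-19 site, chr2:20810229-20810258, plus strand: aaagcaacaagTTTGCACAgttagggtggt
Pcdh10, miR-19 site, chr3:45419447-45419476, plus strand: aagcagtatgaTTTGCACAgagtcgaccaa
Klf2, miR-92 site, chr8:72321122-72321151, plus strand: ttttcaaaatgGTGCAATAattgacttatt
Bcl2l11, miR-92 site, chr2:128162438-128162467, plus strand: ccactgtacctGTGCAATActgctgtaaat
Bcl2l11, miR-17 site, chr2:128160441-128160470, plus strand: ccccgactggaGCACTTTActgtctcagcc
Of these genes Ccnd1 was above 0 in every type, Egln3 was higher in endothelial cells, and Klf2 was higher in immune cells. Hnrnpul1, which lies in the chromosome 7 stretch of lower genes, was lower in 6 types. Etl4 and Pcdh10 were lower in adenosympathic cells, and Bcl2l11 was called in none. These genes were picked by their ratios or after their values were seen, so their directions do not show what a site does.

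Over all genes the difference was small. The median log2 ratio of genes with an 8mer of any family differed from that of genes without one by -0.04 to 0.02 over the 7 types. Genes with long 3′ UTRs hold more sites, so the difference was also taken within 5 bins of UTR length. Its mean over the bins was then 0.05 in mesonephros (1738 genes with a site), 0.06 in tubules (1503), 0.09 in epithelial mesonephros (1430), 0.08 in endothelial cells (1200), 0.12 in adenosympathic cells (775), 0.06 in adrenal gland cells (458) and -0.01 in immune cells (169). It was above 0 in all 5 bins in the first 5 of these types, in 3 bins in adrenal gland cells and in 2 in immune cells. The same value was -0.07 to 0.04 for the XX control over the XY control, -0.13 to 0.02 between the control runs and -0.05 to 0.02 between the KO runs. The bin of the shortest UTRs held 11 genes with a site in adenosympathic cells, 5 in adrenal gland cells and 23 in endothelial cells. Without that bin the means were 0.04, 0.01 and 0.04, so these 3 values rest largely on a thin bin. In immune cells that bin held 1 gene with a site (difference 0.25). It was left out of the immune mean and of the immune count of bins above 0.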

How the data were processed

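Gonads with mesonephros were profiled with 10x 3′ v3.1 single-cell RNA-seq in 4 samples. Per the submitters' processing notes and methods, reads were counted with Cell Ranger 6.1.1 on mm10, and cells were filtered in Seurat on depth and on the percent of mitochondrial and haemoglobin counts. The authors removed doublets with DoubletFinder before deposit. They deposited raw UMI counts per gene and cell (21495 genes, 126435795 values above 0, all whole), with cell types, clusters and the percent columns in a table of cells. Cells were not filtered further, types and clusters are those deposited, and no per-sample column was left unmapped.

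Counts were summed per sample and type, and the tests omitted 113 genes (mitochondrial, globin and those of ribosomal proteins). The log2 ratio of CPM had a prior count of 0.5 on both sums, a gene needed 100 UMIs over both samples and a type 30 cells. Intervals are exact: Poisson for sums, binomial for ratios and Clopper-Pearson for shares. No statistical test was possible with 1 sample per group, and the depth filters and free RNA of a droplet assay act on every value. 8mer sites were counted in the longest GENCODE M21 3′ UTR of a gene, and 21162 symbols had a single annotation. Python 3.11.15 with numpy 2.4.6, pandas 2.3.3 and scipy 1.17.1 was used, with R 4.3.3 and edgeR 4.0.16 for TMM factors, and matplotlib 3.10.9 for plots. The procedure was tested on simulated data.

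The types, lists and comparisons were chosen with earlier results of these data known. The rule for named genes was Mir17hg, all shared genes, the 3 highest and 3 lowest genes of a single type, the 2 highest and 2 lowest among genes tested in at most 2 types, list members past 2-fold in at least 2 types, and markers. Cluster levels, neighbouring genes, Ccnd1, Bcl2l11 and other genes outside this rule, and the duct, muscle, granulocyte and platelet genes, were chosen after their values were seen. Alternatives were other count minimums, folds, priors, single runs, deeper cells, TMM, the mean of CPM over cells, other definitions of shared, and settings added after seeing the data.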

Additional observations from a re-analysis of the deposited data

How the results depend on the processing

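No paired analysis was possible because each group held 1 sample. Counts below are shared higher and lower, then single-type higher and lower, then gene and type pairs higher and lower, then calls per type in the order mesonephros, tubules, epithelial mesonephros, endothelial, immune, adenosympathic and adrenal gland, and only values more than 1.5 times from those reported are given. TMM scaling left 3 shared lower genes, H19, Bckdha and Dppa5a. A minimum of 50 UMIs gave 8 shared lower, 95 and 230 of a single type, 652 and 1474 pairs, and 362, 448, 197, 224, 508, 211 and 176 calls. A minimum of 200 gave 0 and 2, 20 and 23, 162 and 290, and 103, 145, 56, 29, 89, 14 and 16. A minimum of 1 UMI gave 18 and 132, 250 and 654, 8298 and 16109, and 3163, 3024, 3009, 2911, 5596, 2672 and 4032. A limit of 1.5-fold gave 6 and 12, 250 and 559, 1238 and 2769, and 851, 909, 532, 497, 474, 457 and 287, and a limit of 4-fold 1 shared lower, 9 and 4, 66 and 95, and 31, 41, 13, 6, 62, 3 and 5. A prior of 5 gave 30 adenosympathic calls. Run 1 alone gave 0 and 1, 23 and 35, 182 and 375, and 127 mesonephros, 155 tubule, 47 endothelial, 96 immune, 31 adenosympathic and 17 adrenal calls. Run 2 alone gave 0 and 3, 27 and 45, 196 and 372, and 116 mesonephros, 56 epithelial, 53 endothelial, 106 immune and 24 adrenal calls. The mean of CPM over cells gave 168 endothelial and 106 adenosympathic calls. Asking for 4 types gave 2 shared higher, for all 7 types 0 and 1, and allowing up to 2-fold elsewhere gave 86 and 166 of a single type. Without immune cells, chosen after seeing the data, 9 and 47 of a single type and 223 higher pairs remained. H19 was among the shared lower genes in every setting.

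The mesonephros share ratio was 1.06 within the 7 types and 1.17 among cells of at least 3000 UMIs. That of endothelial cells was 0.607 in run 1 and 0.408 in run 2, of immune cells 0.901 and 0.307 and, reversed, 1.42 among the deep cells, and of adenosympathic cells 0.428 in run 1. The site difference was -0.112, -0.124, -0.0993, -0.132 and -0.171 in mesonephros, tubules, epithelial mesonephros, endothelial and adenosympathic cells for XX over XY. Within UTR bins it was 0.0608, 0.0877, 0.0809, 0.119 and 0.0595 in tubules, epithelial mesonephros, endothelial, adenosympathic and adrenal gland cells. Without the bin of the shortest UTRs, a setting added after seeing the data, it was 0.047, 0.0359 and 0.0124 in tubules, adenosympathic and adrenal gland cells. It was -0.068 in adenosympathic cells with 7-base sites added, and in adrenal gland cells 0.0117 with a minimum of 500 UMIs and 0.0316 between control runs. Thbs1 in immune cells reversed from -1.72 to 0.084 with the mean of CPM over cells. The cause of these shifts was not tested, beyond what fewer genes or cells in a setting give. Of 1280 values of named genes under alternatives, 1231 kept direction and side of the limit, and 21 of 242 list medians moved. The log2 ratio of a single gene does not depend on the count minimum. Values of named genes under other minimums are therefore kept by construction, and the count of 1231 overstates how much was checked.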
